A study of Mus musculus with 8 samples.

Results

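The genes described here are 10 transcripts of complement C1q and of tissue macrophages, C1qa, C1qb, C1qc, Mrc1, Cd163, Mertk, Ms4a7, Apoe, Trem2 and Folr2. They were chosen by name, and each was represented by 1 probe set, a group of array probes summarized to 1 value, among the 21789 probe sets that carry a single gene symbol (35557 probe sets in all, 19938 genes named). RNA came from tail tumors of TAX-LUC mice, in which the human granzyme B promoter drives the HTLV-1 oncogene Tax in cytotoxic lymphocytes and a luciferase transgene reports Tax activity. All mice carried both transgenes (TAX+ LUC+) and were either IL-15+/+ or IL-15-/-, and the IL-15-/- allele has part of the Il15 exons replaced by a selection cassette. Cells stained for CD16/32, which are Fc gamma receptors, were sorted from each tumor into CD16/32HI cells, labelled as malignant large granular lymphocytes, and CD16/32LO cells, labelled as infiltrating the tumor and described by the study as rich in neutrophils. Each of the 4 groups held 2 arrays, 1 from a mouse of 14 months (replicate 1) and 1 from a mouse of 12 months (replicate 2), so the 8 arrays came from 4 tumors. The questions were how these genes differed between the sorted populations and between the genotypes.

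C1q is the recognition part of the first complement component. It is assembled from the A, B and C chains, each encoded by a gene of its own, and in most tissues it is made by macrophages rather than by the liver, which makes many other complement proteins. Mrc1 (the mannose receptor CD206), Cd163 (the haptoglobin-hemoglobin scavenger receptor), Mertk (a receptor kinase that takes up apoptotic cells through bridging ligands), Trem2 (a lipid receptor that signals through the adaptor Tyrobp) and Folr2 (folate receptor beta) are surface receptors of macrophages settled in tissues. Ms4a7 is a membrane protein of the 4-span MS4A family, and Apoe is a secreted carrier of lipids.

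The promoters of C1qb and C1qc, which lie side by side with C1qa on chromosome 4 and moved together, are shown with that of Mrc1, which had the same pattern from array to array, and that of Cd163, which did not. Each window runs from 250 bases before to 50 bases after the annotated start, in the RefSeq annotation of GRCm38.p6, and 9 of the 10 genes matched a window (C1qa did not). Capitals mark every match, on either strand, to the core of the binding site of the myeloid factor PU.1 (GAGGAA), to the half-site of the MAF factors (TGCTGA), and to the E-boxes CACGTG and CATGTG.
C1qb (chr4:136886151-136886450, - strand): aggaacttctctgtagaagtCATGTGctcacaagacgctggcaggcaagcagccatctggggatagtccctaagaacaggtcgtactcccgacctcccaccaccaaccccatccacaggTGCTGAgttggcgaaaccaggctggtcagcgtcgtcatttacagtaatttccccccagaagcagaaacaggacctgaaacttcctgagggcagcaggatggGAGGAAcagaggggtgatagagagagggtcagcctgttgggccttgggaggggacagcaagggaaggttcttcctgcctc
C1qc (chr4:136892865-136893164, - strand): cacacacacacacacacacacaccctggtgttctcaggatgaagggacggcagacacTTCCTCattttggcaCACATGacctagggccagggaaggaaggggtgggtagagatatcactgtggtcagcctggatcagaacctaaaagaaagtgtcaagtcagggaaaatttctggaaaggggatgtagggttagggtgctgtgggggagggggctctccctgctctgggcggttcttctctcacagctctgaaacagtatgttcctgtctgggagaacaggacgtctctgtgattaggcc
Mrc1 (chr2:14229164-14229463, + strand): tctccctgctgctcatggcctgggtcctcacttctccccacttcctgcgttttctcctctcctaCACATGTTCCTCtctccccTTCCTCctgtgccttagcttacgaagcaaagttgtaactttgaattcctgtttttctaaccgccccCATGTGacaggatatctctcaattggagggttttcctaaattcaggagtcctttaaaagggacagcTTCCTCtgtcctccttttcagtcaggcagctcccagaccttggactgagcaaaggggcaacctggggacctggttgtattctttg
Cd163 (chr6:124304401-124304700, + strand): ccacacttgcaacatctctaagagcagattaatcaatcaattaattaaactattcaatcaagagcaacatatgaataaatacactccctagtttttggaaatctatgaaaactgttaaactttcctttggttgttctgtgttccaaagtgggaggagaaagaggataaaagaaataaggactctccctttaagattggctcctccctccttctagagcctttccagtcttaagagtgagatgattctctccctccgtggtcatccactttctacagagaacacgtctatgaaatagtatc
GAGGAA stood in a window of 6 of the 9 genes (7 of their 13 windows, since Apoe, Folr2 and Ms4a7 have several), and 28.3% of all 32851 promoter windows of the table hold it. C1qb and C1qc had 1 match each and Mrc1 had 3. CATGTG stood in a window of 5 of the 9 genes, namely C1qb, C1qc, Mrc1, Folr2 and Ms4a7 (5 of the 13 windows, beside 14.2% of all windows). TGCTGA was found for C1qb and Folr2 (3 of the 13 windows, beside 19.5% of all windows). The longer TGCTGAC, which contains it (4.67%), and CACGTG (7.15%) were found for none. The Cd163 and Mertk windows held no match. These are matches of letters in short windows and not binding sites.

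Before the values of these genes, the arrays of 1 mouse need mention. The mouse in question is the IL-15-/- mouse of 14 months, called the older IL-15-/- mouse below, and the IL-15-/- mouse of 12 months is the younger one. In the older one the array labelled CD16/32HI resembled the CD16/32LO arrays of the other mice (r = 0.981 to 0.988 across the 21789 probe sets) more than their CD16/32HI arrays (0.946 to 0.956), and the neutrophil receptor Cxcr2 stood at 12.62 there and at 9.93 in the array labelled CD16/32LO. Fcgr2b, which encodes CD32, showed the same reversal, at 9.13 in the array labelled CD16/32HI and 10.97 in that labelled CD16/32LO, against 10.38 to 10.98 and 8.87 to 9.31 in the other mice. Fcgr3, which encodes CD16, did not separate the arrays, at 10.86 and 11.07 in this mouse and 10.59 to 11.37 and 10.64 to 11.14 in the others (population difference without this mouse 0.07, adjusted p = 0.836). The labels were kept as deposited and results are given with and without this mouse, a choice made with the values of the macrophage genes known. The arrays also fall into 3 sets that share exactly equal values and were therefore normalized apart (the 4 arrays of replicate 1, the IL-15+/+ arrays of replicate 2, and the IL-15-/- arrays of replicate 2). Xist lay at 10.08 to 10.75 in the IL-15-/- arrays and at 3.92 to 4.64 in the IL-15+/+ arrays, so sex and genotype cannot be told apart. The Il15 probe set (5.18 to 6.88 in IL-15+/+ and 5.22 to 6.54 in IL-15-/- arrays) includes probes outside the replaced exons and does not check the genotype. Markers of the labelled lymphocytes were mixed. Of 18 measured T and NK cell genes, 3 (Cd2, Prf1 and Klrd1) were above the array median in all 8 arrays and 1 (Ncr1) below it in all 8. In the CD16/32HI arrays Klrd1, an NK cell receptor subunit, lay at 6.26 to 7.87, Cd3e at 5.65 to 6.08 and Gzmb at 4.50 to 6.18. The mean of the 18 genes in these arrays was 5.33 to 6.16, beside array medians of 5.62 to 5.91.

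C1q transcripts were abundant in the CD16/32HI arrays of 3 mice and lower in their CD16/32LO arrays. On the log2 scale of the deposited RMA values, C1qa, the A chain, lay at 10.65 and 10.10 in CD16/32HI cells of IL-15+/+ replicates 1 and 2 and at 8.06 and 7.94 in their CD16/32LO arrays. In the younger IL-15-/- mouse it lay at 11.43 in CD16/32HI and 8.16 in CD16/32LO cells, and in that of replicate 1 at 7.68 and 10.73. The populations did not overlap in the IL-15+/+ arrays, and the IL-15-/- arrays of each label held 1 high and 1 low value. C1qb, the B chain, gave 9.81 and 9.32 in IL-15+/+ CD16/32HI arrays and 7.57 and 7.40 in IL-15+/+ CD16/32LO arrays, with 7.25 and 9.75 in the IL-15-/- CD16/32HI arrays and 9.57 and 7.30 in the IL-15-/- CD16/32LO arrays. C1qc, the C chain, gave 11.37 and 10.82, then 9.27 and 8.68, then 8.83 and 11.55, then 11.29 and 9.15 in the same order. All 3 stood above the array median in all 8 arrays, so the low arrays were not empty of signal.

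**Figure D1:**
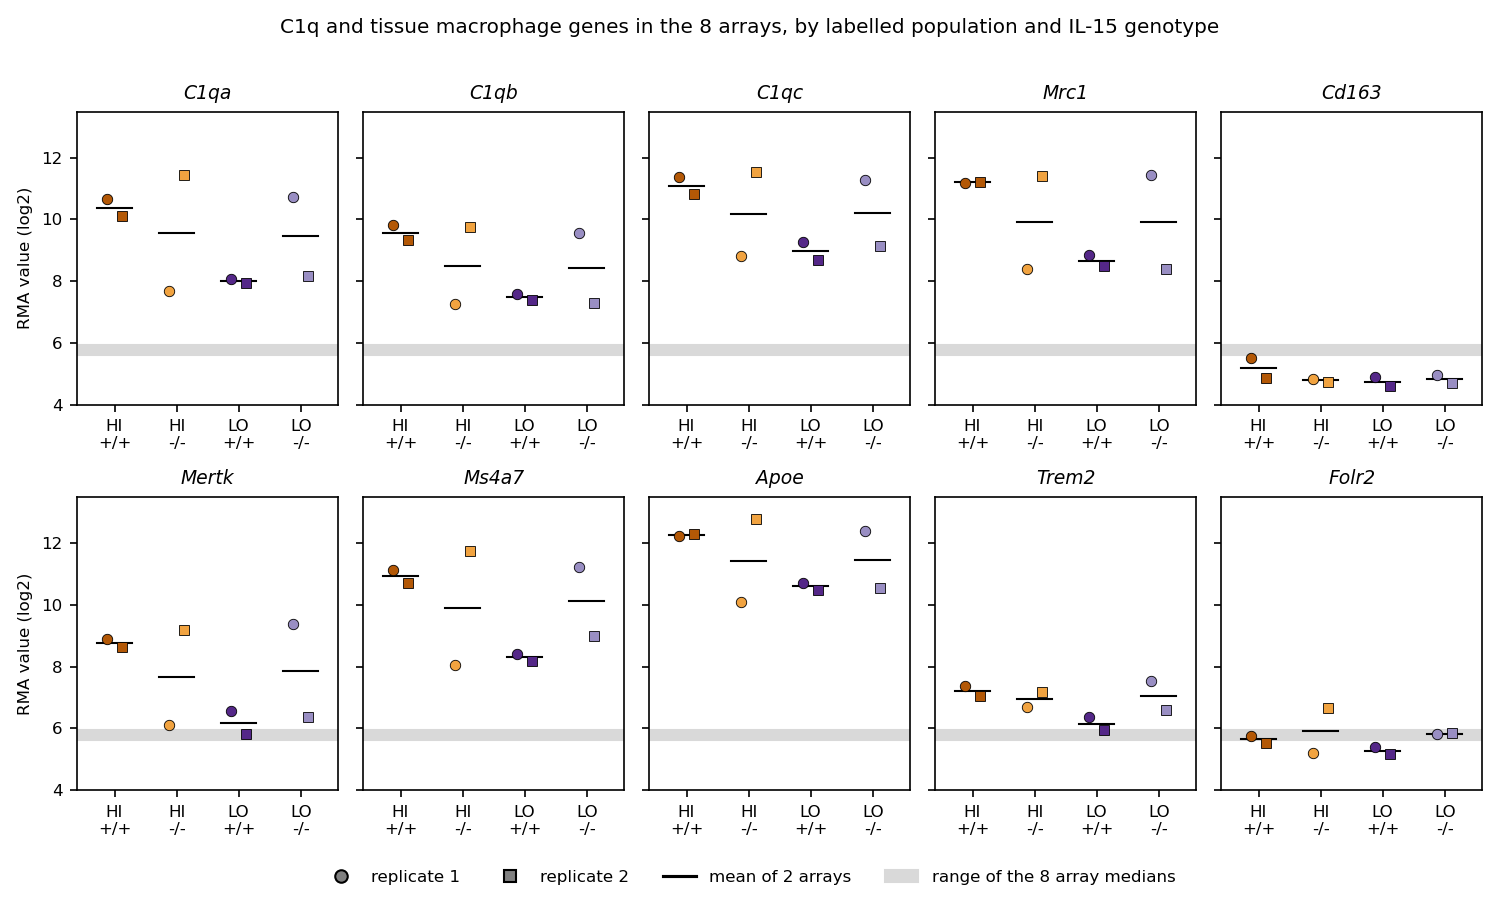
RMA values (log2, y axis) of the 10 genes in the 8 arrays, by labelled population and IL-15 genotype (x axis), with circles for replicate 1, squares for replicate 2, lines for the group mean (2 arrays), and a grey band for the range of the array medians (5.62 to 5.93). The IL-15-/- groups of C1qa, C1qb, C1qc, Mrc1, Mertk, Ms4a7 and Apoe each hold 1 high and 1 low array, and Cd163 lies below the medians throughout.

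The receptors did not behave alike. Mrc1 lay at 11.19 and 11.20 in the IL-15+/+ CD16/32HI arrays, at 8.83 and 8.50 in the IL-15+/+ CD16/32LO arrays, at 8.40 and 11.41 in the IL-15-/- CD16/32HI arrays and at 11.45 and 8.38 in the IL-15-/- CD16/32LO arrays. Mertk gave 8.88 and 8.63, then 6.56 and 5.82, then 6.11 and 9.20, then 9.37 and 6.35 in that order, and so had the same high and low arrays as C1q. Trem2 had a narrower range, from 5.94 in an IL-15+/+ CD16/32LO array to 7.52 in the array labelled CD16/32LO of the older IL-15-/- mouse. Folr2 exceeded its array median in 1 array alone, the CD16/32HI array of the younger IL-15-/- mouse, at 6.64, and lay at 5.17 to 5.84 in the other 7. Cd163 was below the array median in all 8 arrays (4.59 to 5.50). Whether a probe set this dim measures its transcript was not tested.

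Ms4a7 and Apoe followed the C1q genes. Ms4a7 lay at 11.14 and 10.71 in IL-15+/+ CD16/32HI arrays and at 8.42 and 8.20 in IL-15+/+ CD16/32LO arrays. In the younger IL-15-/- mouse it was 11.75 in CD16/32HI and 9.0045 in CD16/32LO cells, both above the IL-15+/+ arrays of the same label, and in that of replicate 1 it was 8.07 and 11.24. Apoe ranged from 10.09 in the array of the older IL-15-/- mouse labelled CD16/32HI to 12.78 in the CD16/32HI array of that of replicate 2.

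The comparison of the populations within mice asked in which sorted cells the genes were more abundant. In each of the 3 mice other than the older IL-15-/- mouse, C1qa, C1qb, C1qc, Mrc1, Mertk, Ms4a7 and Apoe were higher by over 2-fold in CD16/32HI cells, which 1.24% of all tested probe sets were (271). In the older IL-15-/- mouse all 7 were over 2-fold lower in the array labelled CD16/32HI, as were 93.0% of the 271 probe sets. C1qa differed by 2.60, 2.17 and 3.26 on the log2 scale in the 3 mice and by -3.05 in that mouse, and Mertk by 2.33, 2.81 and 2.85 and by -3.26. Every one of the 10 genes had a negative difference in that mouse, down to -0.11 for Cd163. In bulk RNA, fewer cells of a type and less RNA per cell cannot be told apart.

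With all 4 mice, limma with the mouse as a block called 0 of the 10 genes and 0 of all probe sets (background 0%, with 257 at an unadjusted p under 0.05). The 10 differences then lay between 0.20 (Cd163) and 1.26 (Mrc1), each with an adjusted p of 0.920. Without the older IL-15-/- mouse, 8 of the 10 were called higher in CD16/32HI cells, beside 6.67% of all probe sets called higher (1453) and 7.62% called lower (1661). Mrc1 was 6.49-fold higher (log2 2.70, SE 0.164, limma adjusted p = 3.14e-05), C1qa 6.38-fold (log2 2.67, SE 0.202, adjusted p = 7.61e-05), Mertk 6.33-fold (log2 2.66, SE 0.157, adjusted p = 2.85e-05) and Ms4a7 6.31-fold (log2 2.66, SE 0.140, adjusted p = 2.04e-05). C1qc and C1qb were 4.64-fold and 4.60-fold higher, Apoe 3.64-fold, and Trem2 1.86-fold (log2 0.90, SE 0.155, adjusted p = 0.00473). Their order carries little weight, since the 95% confidence intervals of C1qa (2.22 to 3.13), Mrc1 (2.33 to 3.07), Mertk (2.31 to 3.02) and Ms4a7 (2.34 to 2.97) nearly coincided. Folr2 differed by 0.51 (adjusted p = 0.0564) and Cd163 by 0.30 (adjusted p = 0.274), and neither passed. The median difference of the 10 was 2.21 beside 0.03 over all tested probe sets. Because the mouse left out was the one that ran the other way in these genes, the calls describe the 3 other mice and not the labels as deposited.

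**Figure D2:**
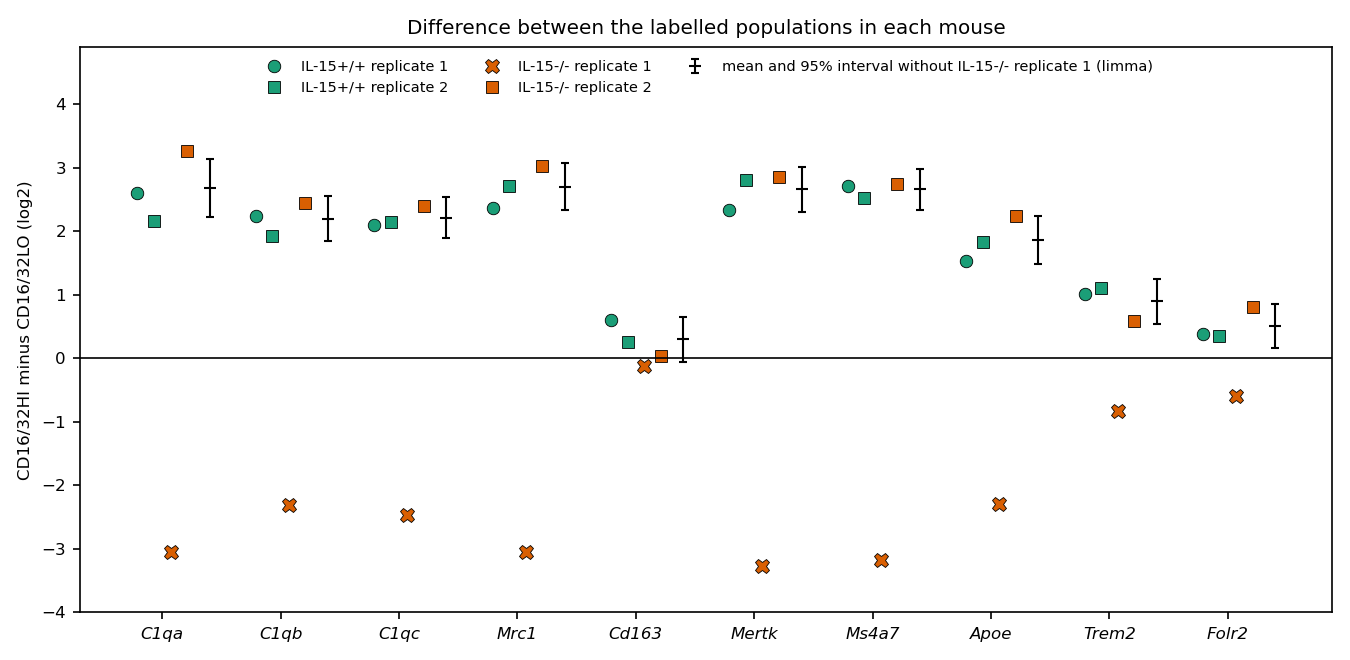
Log2 difference between the arrays labelled CD16/32HI and CD16/32LO (y axis) for each gene (x axis) in each of the 4 mice, with the mean and 95% confidence interval from limma over the 3 mice without the older IL-15-/- mouse. That mouse (crosses) lies below 0 for all 10 genes, from -0.11 for Cd163 to -3.26 for Mertk, and the other 3 lie above 0.

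Across the 8 arrays the genes kept step to different degrees. C1qa, C1qb, C1qc, Mrc1, Mertk, Ms4a7 and Apoe gave pairwise Pearson correlations of 0.967 to 0.993 (21 pairs). Trem2 correlated with these 7 at 0.818 to 0.912, Folr2 at 0.613 to 0.771 and Cd163 at 0.396 to 0.539. The arrays of a mouse share a tumor, and the values over 8 arrays mostly reflect 1 contrast, between 4 arrays where the 7 genes were high and 4 where they were low, so no p is given. Relative to the mean of the 3 C1q genes in the same array and centred over arrays, Mrc1 varied by 0.95 on the log2 scale, from -0.43 in the CD16/32LO array of the younger IL-15-/- mouse to 0.52 in the CD16/32HI array of IL-15+/+ replicate 2. The C1q chains themselves parted most in the CD16/32HI array of the younger IL-15-/- mouse, where C1qa stood 0.50 above and C1qb 0.34 below their shared mean. Trem2 varied by 2.49 on this scale and was relatively high wherever C1q was low, that is, it changed by less. In the arrays with low C1q it lay at 5.94 to 6.70, beside array medians of 5.65 to 5.93. Whether a signal this dim made its change smaller was not tested.

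Genes outside the 10 with the most similar pattern were sought by correlation with the mean of the 10 over 2291 probe sets whose SD over the arrays was above 0.5. The 6 nearest were Opn3 (an opsin, r = 0.999), Smim10l1 (0.996), Cpq (a carboxypeptidase, 0.996), Rps6ka3 (the kinase RSK2, 0.996), Cx3cr1 (the fractalkine receptor, 0.995) and Vps50 (an endosomal trafficking subunit, 0.995), over 8 arrays each. Cx3cr1 lay at 9.03 and 8.72 in IL-15+/+ CD16/32HI and at 7.39 and 6.94 in IL-15+/+ CD16/32LO arrays, and at 7.07 and 9.61 in the IL-15-/- arrays labelled CD16/32HI. The nearest genes on either side of the C1q cluster that have a probe set, Lactbl1 and Epha8 (an ephrin receptor), had values of 5.26 to 5.82 and 5.38 to 6.10 over the arrays. Their population differences without the older IL-15-/- mouse were 0.19 each (adjusted p = 0.528 and 0.455) and did not pass.

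Further macrophage genes were described by lists. Of 25 measured genes of resident macrophages, 11 were called higher and 1 lower in CD16/32HI cells when leaving out the older IL-15-/- mouse (limma adjusted p under 0.05, background 6.67% and 7.62% as above), with a median difference of 0.31 beside 0.03 over all probe sets. The largest were Ms4a4a, of the same family as Ms4a7, at 2.77 (SE 0.175), the platelet factor Pf4 at 2.75 (SE 0.148) and the selenium carrier Selenop at 2.23 (SE 0.169). Several genes that mark particular resident macrophages were, after their values were seen, picked out as dim: Lyve1 (5.09 to 5.49), Vsig4 (4.02 to 5.31), Marco (4.81 to 5.23) and Cd5l (4.08 to 4.52) were below the array median in all 8 arrays, like Cd163, and none was called. The gene called lower was Slc40a1, the iron exporter, at -1.29 (SE 0.309, adjusted p = 0.0231). Of 21 measured pan-macrophage genes, 13 were called higher and 3 lower, with a median of 1.03. The scavenger receptor Msr1 (2.47), the lysosomal protease Lgmn (2.39) and the Fc receptor Fcgr1 (2.17) led. Adgre1, which encodes F4/80, differed by 0.25 (adjusted p = 0.385) and did not pass, while Cd14, Cd80 and Itgam were lower in CD16/32HI cells. With all 4 mice 0 genes of either list were called.

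**Figure D3:**
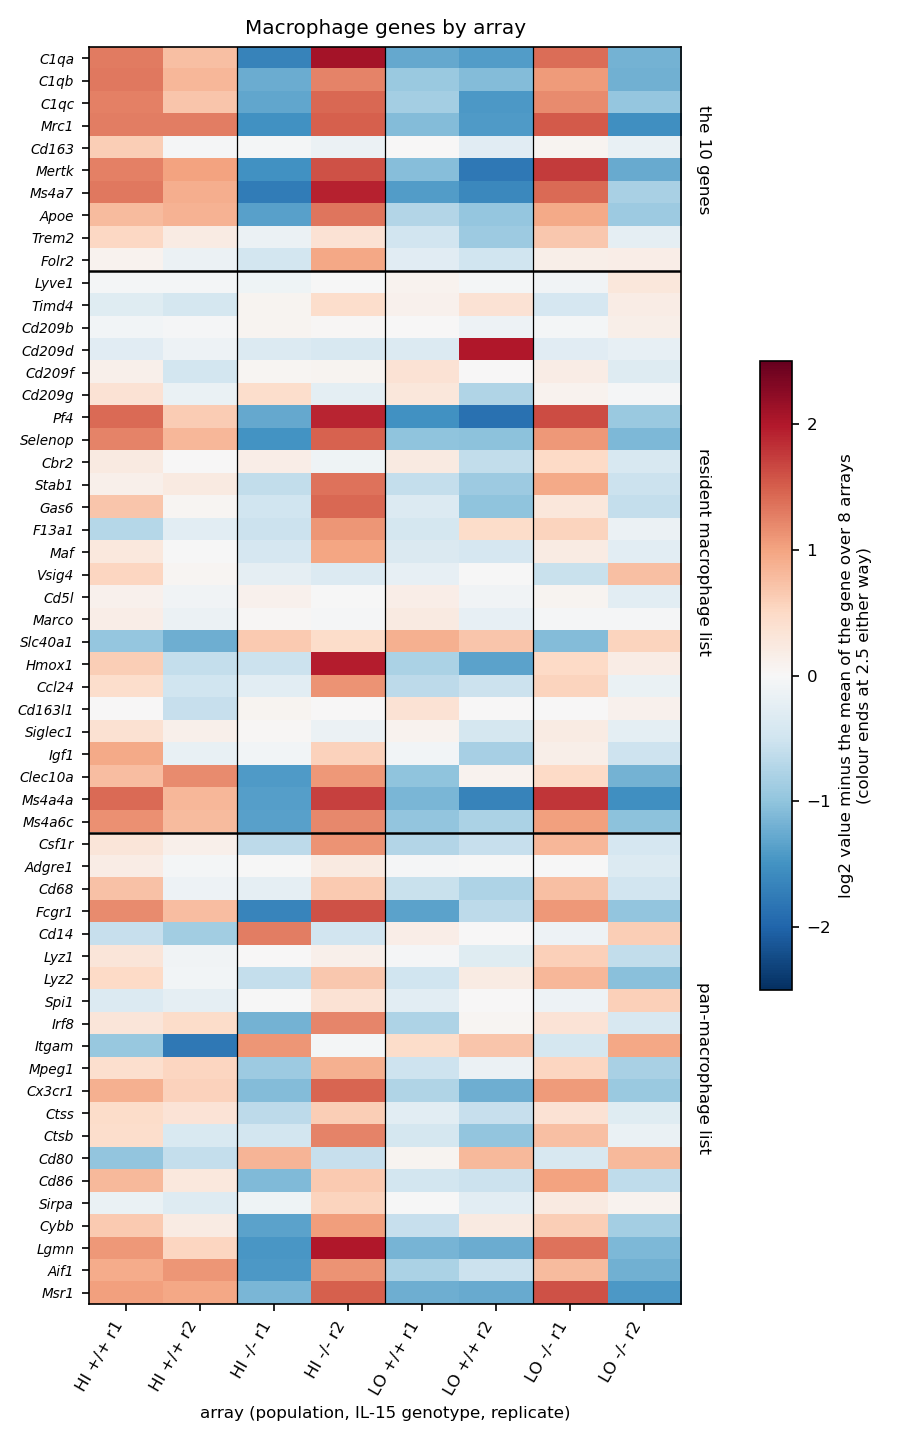
Log2 value minus the mean of the gene over the 8 arrays (colour) for the 10 genes, the resident macrophage list and the pan-macrophage list (y axis) in each array (x axis, with r for replicate). The array labelled HI -/- r1 is low and LO -/- r1 is high for C1qa (7.68 and 10.73) and for Pf4, Selenop, Msr1 and Lgmn alike, while Lyve1, Marco and Adgre1 vary little.

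The complement genes around C1q were described in the same way. Of 18 measured complement genes outside the 10, 3 were called higher and 2 lower in CD16/32HI cells when leaving out the older IL-15-/- mouse (background 6.67% and 7.62%), with a median difference of -0.01 beside 0.03 over all probe sets. Those higher were C3ar1, the receptor of the C3a fragment (1.81, SE 0.154), C1qbp, a mostly mitochondrial protein that binds the globular heads of C1q (1.09, SE 0.139), and the chaperone Calr, a C1q-binding signal on dying cells (0.66, SE 0.137). Those lower were the complement receptor subunits Itgam (-1.63, SE 0.247) and Itgax (-0.62, SE 0.162). C1ra and C1s1, the proteases that join C1q in the C1 complex, differed by 0.45 (adjusted p = 0.0589) and -0.41 (adjusted p = 0.241). C1s1 lay at 3.49 to 3.89 in the arrays of 3 mice and at 5.63 and 6.65 in the CD16/32HI and CD16/32LO arrays of the younger IL-15-/- mouse. Serping1, the C1 inhibitor, lay at 5.16 to 6.15 and at 7.61 and 8.59 in the same way, and Cfb, factor B, at 6.83 to 7.86 and at 9.25 and 9.52. Both arrays of that mouse, which were normalized apart from the other 6, lay above them for C1s1, Serping1 and Cfb. How many of all probe sets did so was not counted, and the part of the normalization was not tested. These 3 genes were singled out after their values were seen. The proteoglycan Dcn, from the stromal and epithelial list, moved with them, at 9.25 and 10.45 in that mouse and 5.06 to 6.51 in the others. The fibroblast collagens of that list did not, with Col1a1 at 6.39 and 6.56 in that mouse and 6.20 to 6.79 in the others. Col3a1 lay at 5.72 and 5.60 against 5.27 to 5.94. Pdgfra and Lum of the same list were above the array median in 0 arrays. Without the older IL-15-/- mouse their IL-15-/- minus IL-15+/+ differences were 0.41 and 0.007 in CD16/32HI cells. In CD16/32LO cells they were 0.77 and 0.39, again as values with no test. In CD16/32LO cells without the older IL-15-/- mouse, the 1 IL-15-/- array differed from the mean of the IL-15+/+ arrays by 2.84 for C1s1 and 2.65 for Serping1 on the log2 scale, given as values with no test, and by 0.17 for C1qa.

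**Figure D4:**
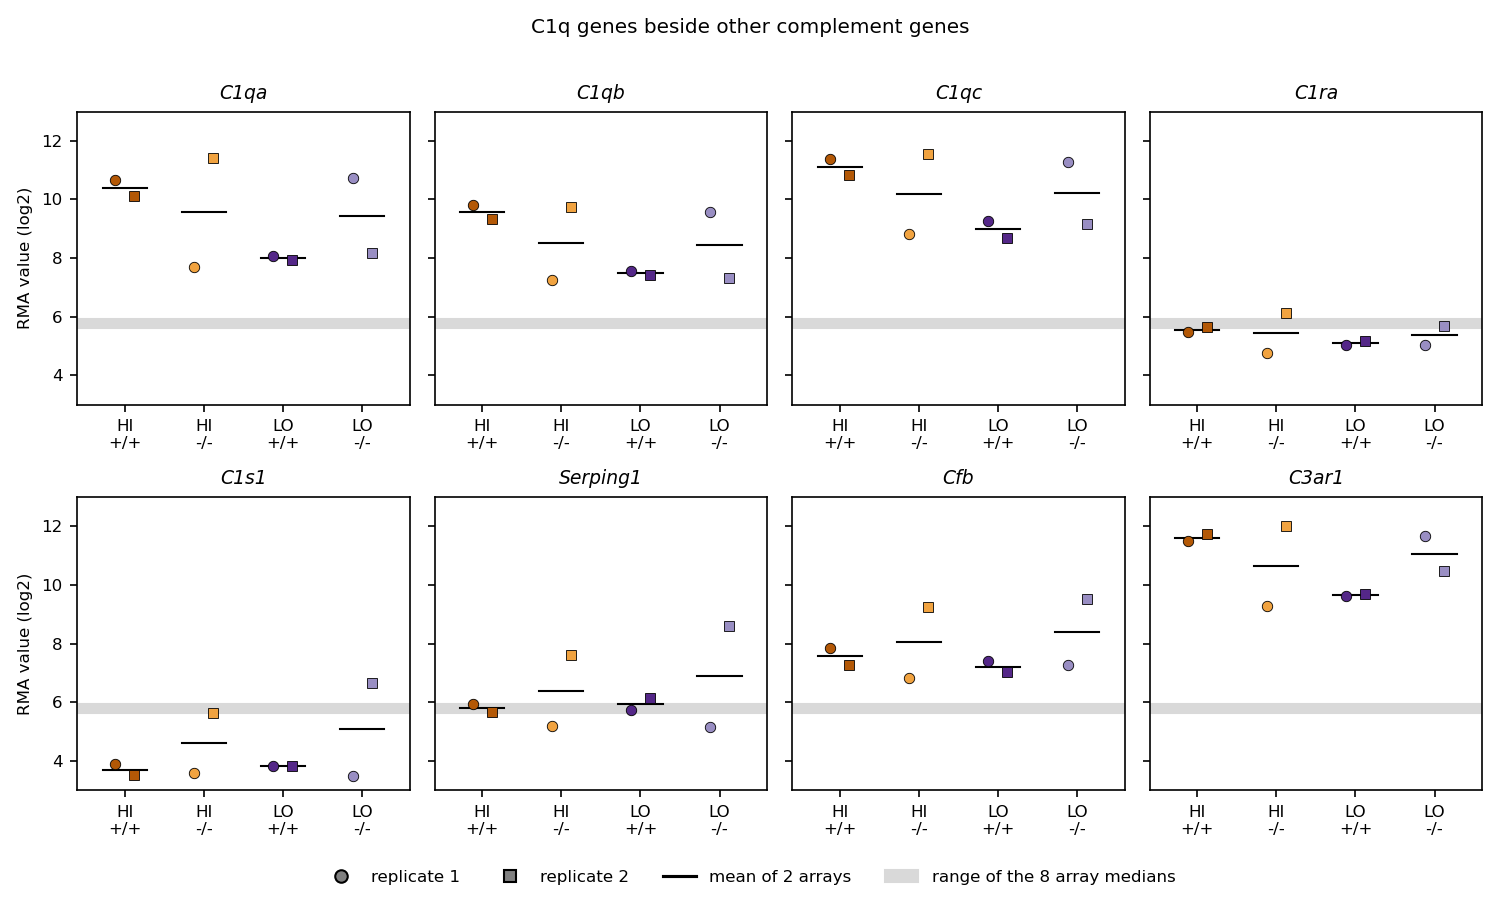
RMA values (log2, y axis) of the C1q genes and of C1ra, C1s1, Serping1, Cfb and C3ar1 in the 8 arrays by labelled population and IL-15 genotype (x axis), with circles for replicate 1, squares for replicate 2, lines for group means and a grey band for the array medians. C1s1, Serping1 and Cfb are highest in both arrays of the younger IL-15-/- mouse (C1s1 5.63 and 6.65), whereas C1qa is high in 1 array of each mouse.

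Genes of the uptake of apoptotic cells, the process Mertk serves, were described next. Of 21 measured, 7 were called higher and 0 lower in CD16/32HI cells when leaving out the older IL-15-/- mouse (background 6.67% and 7.62%). Axl, the kinase related to Mertk, was 2.25 higher (SE 0.160), and the third kinase of the family, Tyro3, differed by 0.02 (adjusted p = 0.953). Among the called genes were the bridging ligands Gas6 (1.37, SE 0.206) and Pros1 (1.34, SE 0.174), which bind kinases of this family. So were Mfge8 (1.40, SE 0.175), a bridging protein, and Itgb5 (2.07, SE 0.158), an integrin subunit that binds it. Of 20 measured genes of Trem2 signaling and of lipid handling, 5 were higher and 6 lower. The fatty acid binding protein Fabp5 was 1.80 higher (SE 0.187), while the related receptor Trem1 and the kinase Syk, which acts below Tyrobp, were lower, with differences of -2.12 (SE 0.144) and -1.49 (SE 0.138). Tyrobp itself, the adaptor of Trem2 and of other receptors, differed by -0.17 (adjusted p = 0.516) and stood at 12.13 to 12.71 in the 8 arrays.

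Markers of other cells moved with the populations. The calls that follow leave out the older IL-15-/- mouse and stand beside a background of 6.67% higher and 7.62% lower, and with all 4 mice 0 genes of any list were called. The mean log2 value of 17 measured neutrophil genes lay at 7.30 to 7.63 in the CD16/32HI arrays of the 3 mice and at 9.48 to 9.94 in their CD16/32LO arrays, and 16 of the 17 were called lower in CD16/32HI cells, such as Retnlg (-4.23), Ngp (-3.63) and Cxcr2 (-3.24). In the older IL-15-/- mouse this mean was 9.97 in the array labelled CD16/32HI and 7.77 in that labelled CD16/32LO. The mean of 18 measured T and NK cell genes was 5.33 to 6.16 in the CD16/32HI and 5.40 to 7.37 in the CD16/32LO arrays of all 4 mice, with 10 called lower in CD16/32HI cells (Cd3g at -2.41) and 1 higher (Cd4 at 0.62). Of 13 measured monocyte genes 5 were higher, led by the chemokine receptor Ccr2 (2.18), and 5 lower, led by Plac8 (-3.40). Dendritic cell genes gave 1 higher and 5 lower of 14, B cell genes 0 and 6 of 8, and stromal and epithelial genes 0 and 3 of 12. The part of other cells in the differences of C1q and the macrophage genes was not tested.

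The comparison of genotypes asked whether the genes differed in tumors without IL-15. In cells labelled CD16/32HI 0 of the 10 genes was called between IL-15-/- and IL-15+/+ tumors, where limma called 0.0229% of all probe sets (5), and in cells labelled CD16/32LO 0 of 10, where it called 0.0367% (8). At an unadjusted p under 0.05 limma picked 0 of the 10 in CD16/32HI (background 4.91%) and 1, Trem2, of the 10 in CD16/32LO cells (background 1.91%). The differences in CD16/32HI cells lay between -1.29 (Mrc1) and 0.28 (Folr2), with 9 of 10 negative and a median of -0.87 beside 0.09 over all probe sets. In CD16/32LO cells they lay between 0.09 (Cd163) and 1.81 (Ms4a7), all positive, with a median of 1.10 beside 0.13. For C1qa the 95% confidence intervals ran from -3.36 to 1.71 and from -1.08 to 3.98, since each IL-15-/- group held 1 high and 1 low array. In CD16/32HI arrays the SD of C1qa was 2.65 for IL-15-/- and 0.39 for IL-15+/+ mice (n = 2 each).

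Markers of other cells differed between the genotypes beside these values. The mean of the 18 T and NK cell genes lay at 5.71 to 6.16 in IL-15+/+ and 5.33 to 5.40 in IL-15-/- arrays of CD16/32HI cells, and at 7.15 to 7.37 and 5.40 to 5.73 in those of CD16/32LO cells, with no overlap in either. Their median difference in CD16/32LO cells was -1.94, and 3 of the 18 (Gzma, Xcl1 and Cd8b1) were called lower (background 0.0321%). The 17 neutrophil genes had a median difference of 1.30 in CD16/32HI cells, with 17 of 17 positive, and of -0.82 in CD16/32LO cells, with 0 called in either. Without the older IL-15-/- mouse these medians were 0.15 and 0.04 for the neutrophil genes and -0.65 and -1.66 for the T and NK cell genes. The part of these cells in the genotype differences of the 10 genes was not tested.

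Within replicate 1, the only arrays of both genotypes normalized in 1 set, C1qa differed by -2.97 in the arrays labelled CD16/32HI and by 2.68 in those labelled CD16/32LO. Within replicate 2 it differed by 1.32 and 0.23. Mrc1 differed by -2.79 and 2.61 in replicate 1 and by 0.21 and -0.11 in replicate 2. In CD16/32HI cells the replicates had opposite signs for 9 of the 10 genes, the exception being Cd163, with -0.66 and -0.11. Both IL-15-/- arrays lay below both IL-15+/+ arrays of CD16/32HI cells for Cd163 (10.4% of all probe sets did so) and above them for 0 genes (background 24.1%). In CD16/32LO cells both lay above for C1qa, Ms4a7, Trem2 and Folr2, 4 of 10 (background 24.2%), and below for 0 (background 4.70%).

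**Figure D5:**
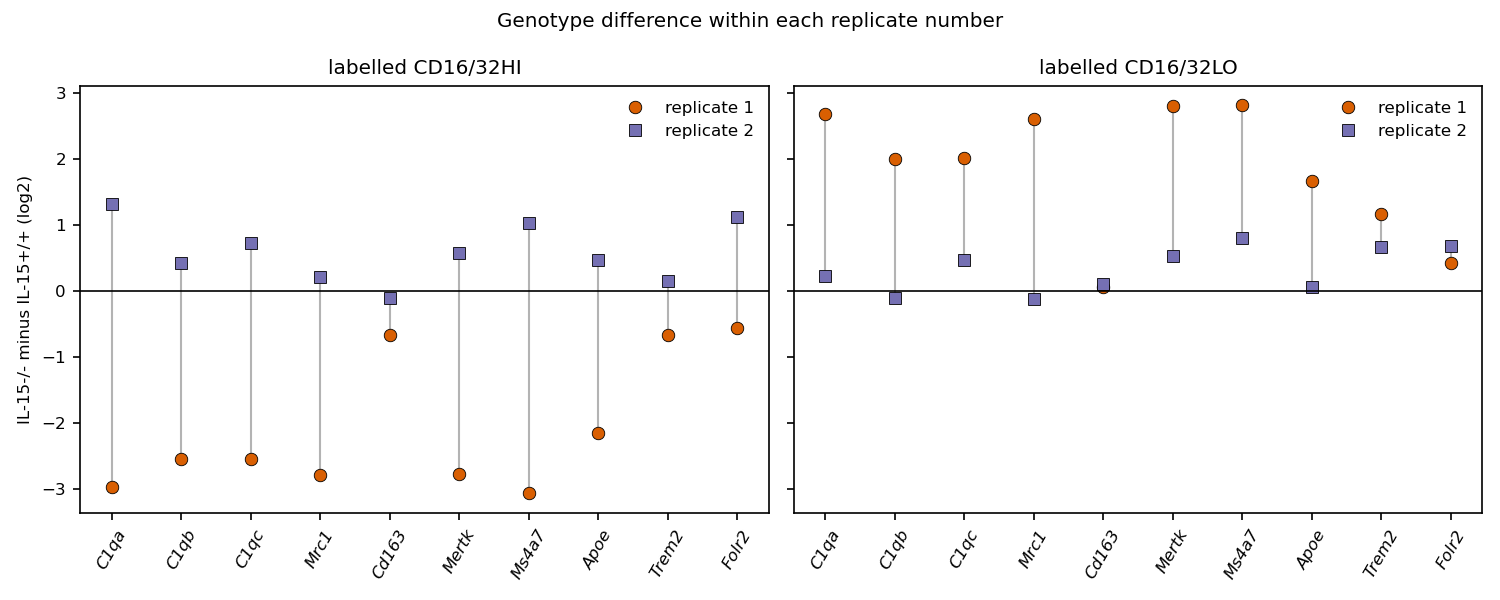
Log2 difference between the IL-15-/- and the IL-15+/+ array of the same replicate number (y axis) for each gene (x axis), in arrays labelled CD16/32HI (left) and CD16/32LO (right), with circles for replicate 1 and squares for replicate 2. C1qa lies at -2.97 and 1.32 on the left and at 2.68 and 0.23 on the right.

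Without the older IL-15-/- mouse the IL-15-/- side rested on 1 mouse, normalized apart from both IL-15+/+ mice. Of the 10 genes, 0 were called in CD16/32HI cells (0.0413% of all probe sets called) and 0 in CD16/32LO cells (0.119%). In CD16/32HI cells 8 of 10 differences were then positive, with a median of 0.45 beside 0.12 over all probe sets. C1qa differed by 1.05, Folr2 by 1.001 and Ms4a7 by 0.82, while C1qb differed by 0.18 and Cd163 by -0.44. In CD16/32LO cells the median was 0.17 beside 0.14 over all probe sets, with Ms4a7 at 0.69 and Mrc1 at -0.28. With all 4 mice the wider macrophage lists gave 0 called genes in either population.

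Because a reversal between the arrays of a mouse leaves their mean as it is, the genotypes were also compared by the mean of both arrays of each mouse, a comparison added after seeing the data. C1qa gave 9.35 and 9.02 in the IL-15+/+ mice and 9.21 and 9.80 in the IL-15-/- mice, and Mrc1 gave 10.01 and 9.85 against 9.92 and 9.90. The genotype differences of the 10 genes lay between -0.15 (Cd163) and 0.42 (Folr2), with a median of 0.23 beside 0.12 over all probe sets, and 0 were called (0.170% of all probe sets). Of the T and NK cell genes, 8 of 18 were called lower by this mean (background 0.119%), with a median of -1.23. For the C1q genes and Mrc1 the 95% confidence intervals by this mean were narrower than those within a population. They were -0.20 to 0.82 for C1qa, -0.53 to 0.41 for C1qb, -0.33 to 0.67 for C1qc and -0.48 to 0.44 for Mrc1. This mean weighs the sorted populations equally whatever their share of the tumor. Whether the genotype difference itself differed between the populations was tested as an interaction within mice, and 0 of the 10 genes and 0 of all probe sets were called (background 0%, 578 at an unadjusted p under 0.05), with differences from -2.83 (Ms4a7) to -0.26 (Folr2). Without the older IL-15-/- mouse they lay between -0.47 (Trem2) and 0.88 (C1qa), given as values with no test since 1 IL-15-/- mouse was left.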

How the data were processed

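RNA of sorted tumor cells was hybridised to Affymetrix Whole Transcript 1.0 ST arrays. The authors deposited log2 values per probe set, made with RMA (background correction, quantile normalization and summary over probes) in Affymetrix Expression Console per the labels. Versions and the genome build of the probes are not given in the sources used here. The values keep no read depth, and the number of arrays limits the precision. Probe sets were named through the platform annotation: 21789 of 35557 had 1 gene symbol and were tested, 1621 had several and 12147 none. All symbols were taken as the annotation gives them after a match of gene IDs to RefSeq (GRCm38.p6), which served also for gene neighbours and promoters. Equal values to the last deposited digit (11 to 106 per pair of arrays within a set, 0 between sets) gave the 3 normalization sets.

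Differences were tested with limma 3.58.1 in R 4.3.3 (lmFit and eBayes), with Benjamini-Hochberg adjustment over the 21789 probe sets and calls at an adjusted p under 0.05. The code was tried on simulated arrays of equal spread with no reversed mouse. That does not test how the fits behave on these data. Genotypes were compared within a population over 4 group means of the 8 arrays. Populations and the interaction were compared with the mouse as a block. A mouse is the pair of arrays of 1 genotype and replicate number, which share age and normalization set. Their deviations from the group means correlated at 0.36 in IL-15+/+ and at -0.46 in IL-15-/- arrays. Between the genotypes, same-numbered arrays are different mice (correlations 0.06 and 0.13), so the replicate block is an alternative there. The methods of the study, an analysis of variance and a filter on over 3-fold changes, were also alternatives, with median centring, quantile normalization, a filter on dim probe sets, all probe sets, the normalization set as a block, the 4 arrays of a population alone, and arrays left out. The crossed pairing and the mouse means were added after seeing the data.

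The 10 genes, 11 wider lists (194 genes, 180 measured with a probe set of their own) and the rules were chosen with earlier results of these data known. All 10 genes were named in each comparison. From a wider list, up to 3 genes with the largest population difference and up to 2 with the largest genotype difference were named. Other genes named (counts of 5 or fewer, partners and relatives of the 10, and standard markers) were picked after their values were seen. Motifs were searched with Python 3.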

Additional observations from a re-analysis of the deposited data

How the results depend on the processing

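Results for the population differences of the 10 genes kept their direction under the alternatives run, and the calls depended on 1 mouse: 0 probe sets were called with all mice and when any other mouse was left out, and 3114 without the older IL-15-/- mouse. Leaving out 1 mouse gave 0.57 to 2.67 for C1qa, 0.62 to 2.20 for C1qb, 0.59 to 2.21 for C1qc, 0.67 to 2.70 for Mrc1, 0.06 to 0.30 for Cd163, 0.62 to 2.66 for Mertk, 0.69 to 2.66 for Ms4a7, 0.35 to 1.87 for Apoe, 0.26 to 0.90 for Trem2 and 0.04 to 0.51 for Folr2. With no replicate block (the mouse left out of the model) and with crossed pairing of the IL-15-/- arrays 0 were called.

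For the genotype difference in CD16/32HI cells limma called 5 probe sets, 3 with a replicate block, 3 with only probe sets above the median, 0 with the normalization set as a block (429 at an unadjusted p under 0.05), 2 with the 4 arrays of the population alone and 9 without either array of the older IL-15-/- mouse. The methods' t-test called 0 after adjustment (1045 at an unadjusted p under 0.05), and 76 passed the 3-fold filter, with 0 of the 10 genes. In CD16/32LO cells limma called 8, 2 with the normalization set as a block, 26 without that mouse and 0 by the methods' t-test (778 at an unadjusted p under 0.05), and 80 passed the 3-fold filter, Mertk (1.67) and Ms4a7 (1.81) among them. With a replicate block the 10 differences were the same and 0 of the 10 genes was called. Mertk and Ms4a7 were under 3-fold in CD16/32LO cells without the older IL-15-/- mouse, at 0.17 and 0.69 (1.12-fold and 1.62-fold). Those are values with no test, since 1 IL-15-/- mouse was left. Leaving out 1 array gave 2 to 4 and 3 to 11 called. The mouse means gave 37 called, 17 after centring and 47 to 205 without 1 mouse. The interaction gave 0 to 2831 without 1 mouse, the highest without the younger IL-15-/- mouse. There the IL-15-/- side was the mouse of replicate 1 alone, whose C1qa differed by -3.05 between the populations, against 2.17 to 3.26 in the other mice. With 1 mouse left on a side, the counts without 1 mouse are no test of the genotype.

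Directions turned as follows, and the cause was not tested. In CD16/32HI cells without either array of the older IL-15-/- mouse the differences were 1.05 for C1qa, 0.18 for C1qb, 0.45 for C1qc, 0.21 for Mrc1, 0.45 for Mertk, 0.82 for Ms4a7 and 0.50 for Apoe, and Folr2 was -0.20 with the normalization set as a block. Leaving out 1 array there gave -2.70 to 1.05 for C1qa, -2.31 to 0.18 for C1qb, -2.27 to 0.45 for C1qc, -2.80 to 0.21 for Mrc1, -2.65 to 0.45 for Mertk, -2.86 to 0.82 for Ms4a7, -2.19 to 0.50 for Apoe and -0.43 to 1.001 for Folr2. In CD16/32LO cells without either array of that mouse C1qb was -0.18, Mrc1 -0.28, Cd163 -0.040 and Apoe -0.061, and Cd163 was -0.028 with centred arrays, -0.030 with quantile normalization and -0.064 with the normalization set as a block. Leaving out 1 array there gave -0.18 to 2.08 for C1qb, -0.28 to 2.78 for Mrc1, -0.065 to 0.24 for Cd163 and -0.061 to 1.79 for Apoe. Interaction differences without 1 mouse ran from -5.43 to 0.88 for C1qa, -4.39 to 0.36 for C1qb, -4.58 to 0.27 for C1qc, -5.58 to 0.50 for Mrc1, -5.83 to 0.28 for Mertk, -5.79 to 0.13 for Ms4a7, -3.98 to 0.57 for Apoe and -0.96 to 0.44 for Folr2. For the mouse means, Apoe was -0.10 after centring, and leaving out 1 mouse gave -0.22 to 0.10 for C1qb, -0.12 to 0.46 for C1qc, -0.10 to 0.060 for Mrc1, -0.39 to 0.090 for Cd163 and -0.20 to 0.22 for Apoe.

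With 2 arrays a group, differences between genotypes under about the intervals given could not be shown. Each of the 10 genes has a single probe set, so the planned use of other probe sets gave no value. Probe sets below the array median (Cd163, mostly Folr2) limit what can be said of those genes.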
